A study of Mus musculus with 2 samples.

Results

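The interleukin 12 family subunits are the 5 genes Il12a, Il12b, Il23a, Il27 and Ebi3, taken by symbol from the 55450 named genes of the tables. Their RNA was measured by ribosomal RNA-depleted total RNA sequencing in mouse macrophages grown from bone marrow (strain C57BL/6J), the main phagocytes that sense bacteria in tissue. All cells had received Lipid A, the part of bacterial lipopolysaccharide that Tlr4 senses, at 100 ng/ml for 120 min, and RNA came from the nucleoplasm, the soluble part of the nucleus. The 2 libraries are replicates of 1 group and come from separate biosample entries that name the same donor entry. Age and sex were not collected. Replicate 1 started from 1 µg of RNA and replicate 2 from 500 ng, so input and replicate cannot be told apart. No untreated culture, other time or other fraction was analysed here, so a level is not an induction and no comparison between groups exists.

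The cytokines of this family are secreted pairs, each made of a helical alpha subunit and a beta subunit that resembles a soluble receptor. Il12b pairs with Il12a to form interleukin 12, which drives interferon gamma production by T and NK cells, and with Il23a to form interleukin 23, which maintains T cells that make interleukin 17. Ebi3 pairs with Il27 to form interleukin 27, which both promotes and restrains T cell responses, and with Il12a to form interleukin 35, described mainly from regulatory T cells. Macrophages and dendritic cells that sense microbes are known sources of the first 3 of these cytokines. A level of RNA is given as TPM, a unit that counts transcripts per fixed total and which corrects a count for the effective length of the RNA and for the total of its library, so that genes can be set side by side. An error beside a level is the SD of the 2 libraries, and an interval is a 95% interval that covers counting error only.

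Il27, Ebi3 and Il12b were abundant in both libraries, and Il23a and Il12a were near or under 1 TPM. Of the 5 subunits, 3 reached 1 TPM in both libraries, where 40.5% of the 21938 nuclear-encoded protein-coding genes did. The mean level was 107 ± 48.5 TPM for Il27, 50.3 ± 15.5 TPM for Ebi3, 48.1 ± 0.785 TPM for Il12b, 1.36 ± 0.629 TPM for Il23a and 0.425 ± 0.0495 TPM for Il12a (SD, n = 2). The 2 values of Il27 lay above both values of every other subunit, those of Ebi3 and Il12b overlapped, and those of Il23a and Il12a lay apart, below the other three. In replicate 1 the order was Il27, Ebi3, Il12b, Il23a, Il12a, and in replicate 2 Il12b stood above Ebi3. The 5 genes summed to 252 TPM and 162 TPM, of which Il27 held 55.9% and 44.8%, Il12b 18.9% and 30.1%, and Ebi3 24.3% in each. The alpha subunits of interleukin 12 and interleukin 23 together made up under 1% of that sum in each library in the alignment-based tables. In the read-based tables, another source for the same libraries, Il23a was at 2.74 TPM and 2.29 TPM. It thus reached 1 TPM in both libraries there, and the share under 1% does not carry over. In bulk RNA, fewer cells that express a gene and less RNA per cell cannot be told apart.

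**Figure D1:**
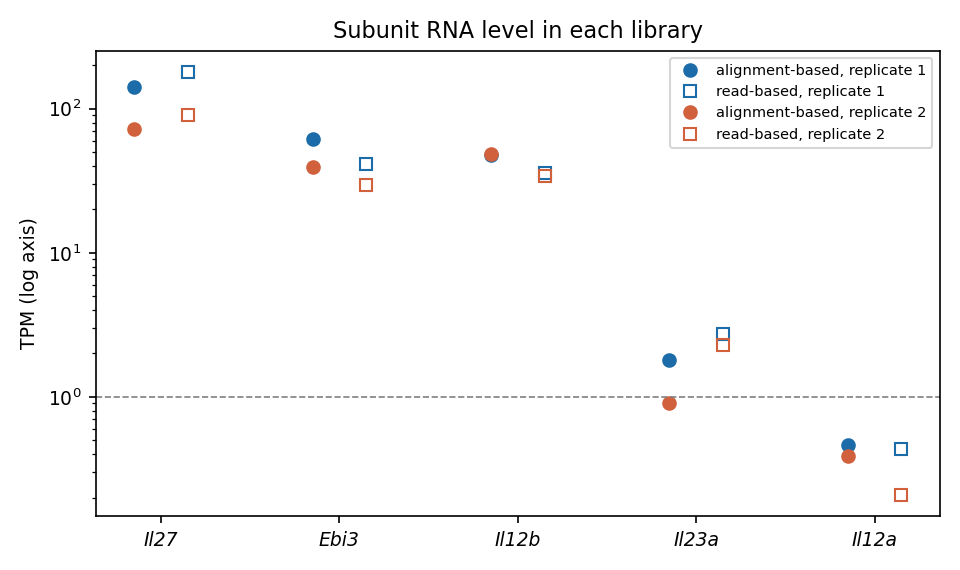
Level of each subunit in TPM on a log axis, 1 point per library, from the alignment-based gene tables (filled) and the read-based tables (open), with a dashed line at 1 TPM. Il27 lies at 141 and 72.5 TPM and Il12a at 0.46 and 0.39 TPM in the filled points.

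Il12b encodes the beta subunit shared by interleukin 12 and interleukin 23, and lies at chr11:44400063-44414033 on the plus strand (mm10, ENSMUSG00000004296.14). Both of its annotated transcripts start at the same base. The 250 bases before that start, from RefSeq promoters of GRCm38.p6 (chr11:44399813-44400062, plus strand), are shown because they precede the only annotated start of this gene. The capitals mark the single match to TATANAA, 30 to 24 bases before the start.
Il12b: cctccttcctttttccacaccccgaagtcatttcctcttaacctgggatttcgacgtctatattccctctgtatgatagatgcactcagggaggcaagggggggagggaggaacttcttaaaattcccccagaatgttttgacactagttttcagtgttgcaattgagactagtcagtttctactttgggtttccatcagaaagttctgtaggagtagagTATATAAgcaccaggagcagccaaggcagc
A match to TATANAA on either strand stood in 10.4% of 32851 RefSeq windows of that length. The NF-kB consensus, the interferon response element (GAAA, any 2 bases, GAAA) and TTGCNNAA had no match in the Il12b window on either strand, which says only that these letters are not there.

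The level of Il12b was 47.6 TPM in replicate 1 and 48.7 TPM in replicate 2, from 1102 and 1702 counts. In the alignment-based tables it was the only subunit whose TPM was no lower in replicate 2, at rank 1339 and 820 among protein-coding genes by TPM. The read-based tables gave Il12b 35.5 TPM and 34.0 TPM, so there it was lower in replicate 2 as well. The exact Poisson intervals of the counts were 1038 to 1169 and 1622 to 1785. Il12b-201, the transcript of 1861 bases, held 1095 and 1678 of these counts. Il12b-202, which has 106 further bases in its first exon (chr11:44400119-44400224), took 6.68 and 23.6 counts. In the read-based tables Il12b-202 took 269 and 127 counts, or 15.6% and 4.59% of the gene's TPM, against 0.58% and 1.32% in the alignment-based tables. Both sources gave most of the RNA to Il12b-201, and they differed on how much the longer first exon held.

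Ebi3 encodes the beta subunit of interleukin 27 and interleukin 35 and lies at chr17:55952640-55957022 on the plus strand (mm10, ENSMUSG00000003206.7). RefSeq places its start at base 55952623, and the 250 bases before it (chr17:55952373-55952622, plus strand, GRCm38.p6) are shown because they alone among the printed promoter windows hold an NF-kB consensus match. Nfkb1, described below, encodes a factor of that family. The capitals mark the match, 44 to 35 bases before the start, which reads as a match on both strands.
Ebi3: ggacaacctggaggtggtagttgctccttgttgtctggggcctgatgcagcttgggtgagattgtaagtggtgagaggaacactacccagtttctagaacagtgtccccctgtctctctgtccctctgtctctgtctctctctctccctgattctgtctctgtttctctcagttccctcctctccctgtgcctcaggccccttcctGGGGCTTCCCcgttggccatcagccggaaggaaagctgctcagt
The NF-kB consensus was matched in 7.25% of all 32851 windows, and a match is a description of letters, not of binding. Il27 and Il23a had no promoter window in this source, so they were not searched.

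The level of Ebi3 was 61.3 TPM in replicate 1 and 39.3 TPM in replicate 2, from 809 and 783 counts. Its share of the subunits' summed TPM was the same in both libraries. Its single annotated transcript has 5 exons and 1154 bases. On the opposite strand the antisense gene Gm16712 covers 2252 bases of Ebi3, of which 270 are exonic in both. Gm16712 was itself at 80.2 TPM and 53.2 TPM, from 1969 counts in each library. Whether counting used strand is not given in the sources used here, so reads of Ebi3 and Gm16712 over the shared bases cannot be told apart.

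Il27 encodes the alpha subunit of interleukin 27 and was the most abundant subunit. It lies at chr7:126589010-126594941 on the minus strand (mm10, ENSMUSG00000044701.5) and has 1 annotated transcript of 5 exons and 1021 bases. Its level was 141 TPM in replicate 1 and 72.5 TPM in replicate 2, from 1597 and 1238 counts, with intervals of 1520 to 1677 and 1170 to 1309 counts. Replicate 1 was the higher library, and in both Il27 stood among the most abundant protein-coding genes, at rank 378 and 513. The last 103 bases of Il27 overlap exon sequence of Apobr, a lipoprotein receptor gene on the opposite strand, which was at 181 TPM and 73.7 TPM. Reads over those bases cannot be assigned to either gene from these tables. The read-based tables gave Il27 179.8 TPM and 90.02 TPM, also higher in replicate 1.

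Il12a encodes the alpha subunit of interleukin 12 and interleukin 35, and lies at chr3:68690644-68698547 on the plus strand (mm10, ENSMUSG00000027776.12). Its protein-coding transcripts begin at different starts: Il12a-201 at base 68690644 and Il12a-202 at base 68691424, 780 bases downstream. The 250 bases before each start (RefSeq, GRCm38.p6, plus strand, chr3:68690394-68690643 and chr3:68691174-68691423) are shown because counts were assigned to a transcript from the downstream start and none to one from the upstream start. They hold no capitals, since none of the 4 motifs searched was matched in either window on either strand. For comparison, the interferon response element was matched in 2.98% and TTGCNNAA in 9.56% of all windows.
Il12a upstream start: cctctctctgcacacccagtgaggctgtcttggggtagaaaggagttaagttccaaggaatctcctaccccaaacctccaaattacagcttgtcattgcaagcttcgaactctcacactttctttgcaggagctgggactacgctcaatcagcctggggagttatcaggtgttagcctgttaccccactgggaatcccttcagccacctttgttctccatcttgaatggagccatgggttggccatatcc
Il12a downstream start: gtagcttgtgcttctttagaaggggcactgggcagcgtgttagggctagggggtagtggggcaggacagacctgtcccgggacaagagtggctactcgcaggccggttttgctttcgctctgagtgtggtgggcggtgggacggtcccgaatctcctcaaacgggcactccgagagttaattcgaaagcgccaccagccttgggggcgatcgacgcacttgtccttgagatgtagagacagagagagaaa

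Counts of Il12a were 6 in replicate 1 and 7 in replicate 2, with exact Poisson intervals of 2.20 to 13.1 and 2.81 to 14.4. The level was 0.46 TPM and 0.39 TPM, and both libraries stayed under 1 TPM. Il12a-201 had 0 counts in both libraries and in both kinds of table, which at 6 and 7 counts for the gene does not show that it was absent. Il12a-202 had 5 and 1.68 counts in the alignment-based tables and 3.11 and 4.22 counts in the read-based ones. Transcripts annotated as retaining an intron held 1 of 6 and 5.31 of 7 counts in the alignment-based tables, and 7.89 of 11 and 4.78 of 9 counts in the read-based ones. At this depth the split between spliced and intron-holding Il12a RNA was not measurable.

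Il23a encodes the alpha subunit of interleukin 23 and lies at chr10:128296139-128298752 on the minus strand (mm10, ENSMUSG00000025383.2). It has a spliced transcript of 4 exons, Il23a-201, and a transcript annotated as retained intron, Il23a-202. Il23a-202 keeps intron 1, of 219 bases (chr10:128297592-128297810), and has 668 further bases at its upstream end (chr10:128298085-128298752). The sources gave opposite accounts of which transcript carried the RNA, so the intron is shown with 20 exon bases on each side, from the GENCODE M21 transcript sequences (chr10:128297572-128297830, minus strand). The capitals mark the first and last 2 bases of the intron.
Il23a intron 1: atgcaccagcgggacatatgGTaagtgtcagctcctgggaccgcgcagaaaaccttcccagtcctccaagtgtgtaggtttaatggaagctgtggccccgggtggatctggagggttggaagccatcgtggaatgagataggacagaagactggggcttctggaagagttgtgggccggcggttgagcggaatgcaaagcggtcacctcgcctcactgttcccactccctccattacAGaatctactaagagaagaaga

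The level of Il23a was 1.80 TPM in replicate 1 and 0.91 TPM in replicate 2, from 31 and 22 counts with intervals of 21.1 to 44.0 and 13.8 to 33.3. The intervals of the counts overlapped. Il23a-201 took 22.9 and 22 of these counts, and Il23a-202 took 8.13 and 0. A 0 here is a share assigned among transcripts, so it does not bound the counts of Il23a-202. In the read-based tables Il23a-201 had nearly the same counts, 25.7 and 21.4, while Il23a-202 had 81.4 and 136. Il23a-202 therefore held 21.2% and 0% of the gene's TPM in the alignment-based tables and 70.5% and 83.0% in the read-based ones. The counts of the spliced transcript differed little between sources and libraries, and nearly all of the disagreement lay in Il23a-202. The protein-coding gene nearest to it, Stat2, a signal carrier of type I interferon, lies 3289 bases away and was at 386 TPM and 189 TPM.

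**Figure D2:**
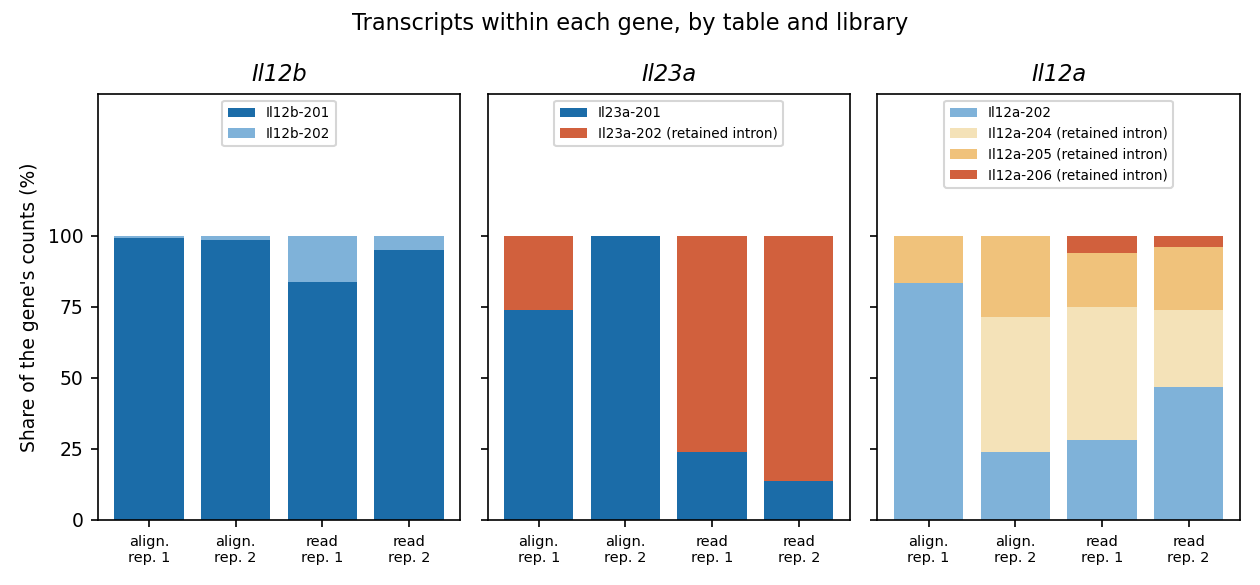
Share of each gene's counts (%) in its annotated transcripts, in 1 bar per library and table (align., alignment-based; read, read-based). The retained-intron transcript of Il23a holds 26.2% and 0% of counts in the alignment-based bars and 76.0% and 86.4% in the read-based bars.

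Ratios of subunits within a library do not depend on how TPM was scaled between libraries. For interleukin 12, Il12b RNA exceeded Il12a RNA by 103 times (interval 47.1 to 281) in replicate 1 and 125 times (61.2 to 315) in replicate 2. For interleukin 23, Il12b exceeded Il23a by 26.4 times (18.5 to 39.0) and 53.5 times (35.4 to 86.0). In both libraries the beta subunit was thus far in excess of both alpha subunits that it pairs with. For interleukin 27 the order was the other way round, and the alpha subunit Il27 exceeded Ebi3 by 2.30 times (2.11 to 2.51) in replicate 1 and 1.84 times (1.68 to 2.02) in replicate 2. For interleukin 35, Ebi3 exceeded Il12a by 133 times (60.6 to 362) and 101 times (49.3 to 255). These are ratios of nucleoplasmic RNA, and protein was not measured.

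**Figure D3:**
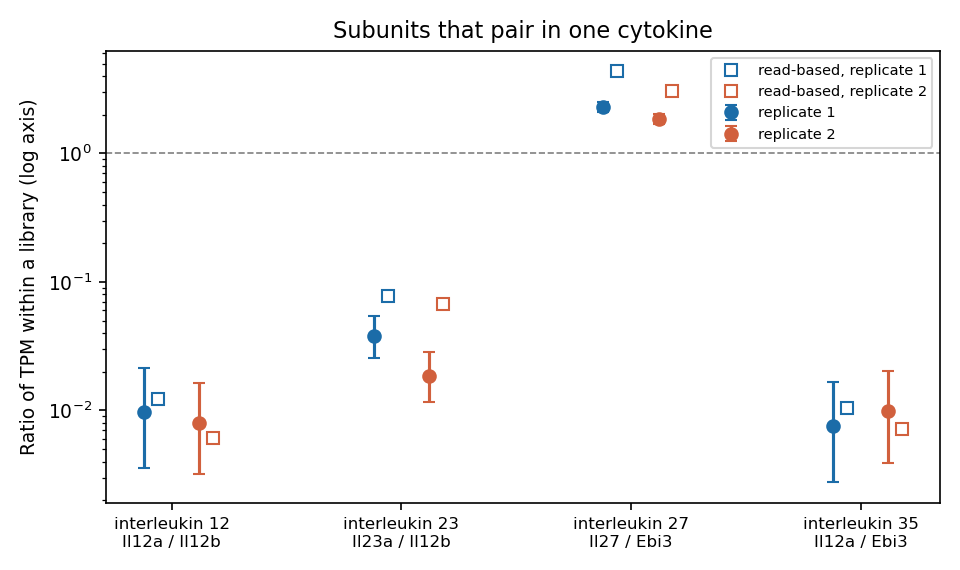
Ratio of TPM of the first to the second subunit of each cytokine within a library on a log axis, with 95% counting intervals on the filled points (alignment-based tables); open squares are the read-based tables. Il27 over Ebi3 lies above 1 in each library (2.30 and 1.84), and the other 3 ratios lie below 0.1.

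The read-based tables kept these orders in both libraries, with other sizes. Il12b exceeded Il12a there by 82.0 times and 163 times and Il23a by 13.0 times and 14.8 times, and Il27 exceeded Ebi3 by 4.35 times and 3.07 times. The beta subunits were close to each other, with Il12b at 0.777 of Ebi3 (0.708 to 0.851) in replicate 1 and 1.24 (1.14 to 1.35) in replicate 2. Which of the beta subunits was higher thus turned between libraries, and did so in the read-based tables as well, at 0.860 and 1.16. Il23a exceeded Il12a by 3.91 times (1.60 to 11.4) and 2.33 times (0.970 to 6.51), so in replicate 2 their order was within counting error. The read-based tables gave 6.33 times and 11.0 times, so the library with the larger ratio depended on the table.

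The ratio of the most abundant alpha subunit to the shared beta subunit differed between libraries. The ratio of Il27 to Il12b was 2.96 (2.74 to 3.20) in replicate 1 and 1.49 (1.38 to 1.60) in replicate 2, and 5.06 and 2.65 in the read-based tables. Differences were also taken as log2 of (TPM + 1) in replicate 2 over replicate 1, less the median over 12647 genes whose mean reached 1 TPM, which was -0.58. On this scale Il12b was at 0.62, Il23a at 0.03, Ebi3 at -0.04 and Il27 at -0.37. None of the 4 subunits at that level differed more than 2-fold from the median, where 7.17% of protein-coding genes did. The SD of this difference over the 6779 protein-coding genes that reached 100 counts in each library was 0.49, which the difference of Il12b exceeded in size and that of Il27 did not. With no filter on low values when taking the median, Il12b was at 0.34 and Il27 at -0.64. Which of these subunits passed that SD therefore depended on the setting. With 1 library on each side there is no test. The difference of Il12b was above 0 under all 7 settings tried and that of Il27 below 0, whereas those of Ebi3 and Il23a turned sign with the setting.

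**Figure D4:**
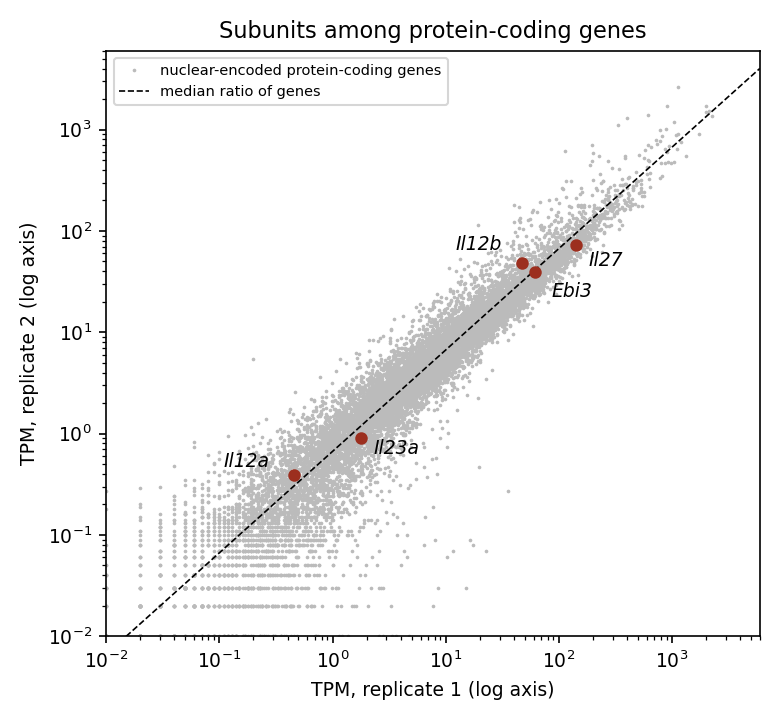
TPM of nuclear-encoded protein-coding genes (grey) and of the 5 subunits (red) in replicate 1 and replicate 2 on log axes, with the median ratio of genes as a dashed line. Il12b lies above the line (relative log2 difference 0.62) and Il27 below it (-0.37), both inside the cloud of genes.

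The libraries held 14374739 and 16372797 estimated counts, and the Pearson correlation of log2(TPM + 1) across 10627 protein-coding genes, which are not independent replicates, was 0.963. For the same genes, a chi-square of the counts over its degrees of freedom was 74.7, far above what counting error alone gives. Across these genes the libraries thus differed by more than counting error, and the counting intervals given here do not cover such differences. This is a result over all these genes, not for each subunit. Mitochondrial genes took 0.424% and 8.70% of counts. All 8 macrophage markers were detected, and their summed level was 1008 TPM and 2252 TPM. Of 8 dendritic cell markers 2 were detected, with a summed level of 17.7 TPM and 4.87 TPM and Cd209a at 0 in both. The 4 stromal markers each passed 1 TPM in replicate 1 and stayed under it in replicate 2, so 0 of 4 were detected in both libraries. Their summed level was 57.6 TPM and 0.15 TPM, from 4254 and 13 counts. In the alignment-based tables, 0 of 3 T cell, 0 of 3 B cell, 0 of 1 NK cell and 0 of 5 neutrophil markers were detected in both libraries. The read-based tables put the T cell marker Cd3d at 8.21 TPM and 7.28 TPM, and none of the other markers of these lists at 1 TPM in both libraries. Relative to the median gene, Il12b and all 8 macrophage markers lay higher in replicate 2, the markers from Mertk at 0.06 to Lyz2 at 2.29. Il27 and all 4 stromal markers lay lower, as did the 3 dendritic markers at a mean of 1 TPM (Batf3 at -1.20, Itgax at -0.74 and Zbtb46 at -0.02). The other dendritic markers were too low to compare, and the part of these cells, of mitochondrial RNA or of input in those differences was not tested.

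Of the 5 receptor genes, 2 were detected in both libraries, a share near the 40.5% of all protein-coding genes. Il6st, the widely used chain through which interleukin 27 signals, was at 34.8 TPM and 25.9 TPM. Il12rb2, the signalling chain of the interleukin 12 receptor, was at 2.18 TPM and 2.34 TPM. Il12rb1, which binds Il12b protein, was at 1.68 TPM and 0.72 TPM. Il27ra, the chain specific to interleukin 27, had 3 and 5 counts. Il23r, specific to interleukin 23, had 2 and 2 counts, too few to measure its level. The read-based tables gave higher levels for Il12rb1, 4.76 TPM and 2.72 TPM, and similar ones for Il12rb2, 1.91 TPM and 1.78 TPM. Of 5 signal carriers described behind these receptors, 4 were detected. The highest were the kinase Jak2, at 197 TPM and 129.7 TPM, and Stat3, a transcription factor that receptors activate, at 136 TPM and 52.9 TPM. The lowest were the kinase Tyk2, at 85.5 TPM and 50.7 TPM, and Stat4, which carries interleukin 12 signals in T cells, at 1.52 TPM and 0.69 TPM.

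All 10 genes listed as activators of subunit transcription were detected in both libraries, where 40.5% of protein-coding genes were. Their median was 91.9 TPM and 53.2 TPM. Irf1, an interferon regulatory factor that acts on Il12a, Il12b and Il27, was highest at 818 TPM and 352 TPM, followed by the NF-kB subunit gene Nfkb1 at 383 TPM and 164 TPM. The lowest were Akirin2, a nuclear adaptor of chromatin remodelling, at 11.98 TPM and 9.24 TPM, and Cebpb, a leucine zipper factor, at 13.1 TPM and 5.78 TPM. All 6 genes listed as brakes on subunit RNA were detected too, with a median of 64.0 TPM and 36.7 TPM. Zfp36, which destabilises AU-rich RNA, stood at 115 TPM and 81.7 TPM, and Bcl3, a nuclear inhibitor-like partner of NF-kB, at 102 TPM and 42.4 TPM. Zc3h12a, a ribonuclease that cleaves cytokine RNA, stood at 38.9 TPM and 21.5 TPM, and Nfil3, a repressor of Il12b, at 19.2 TPM and 8.72 TPM. The lists were chosen with earlier results of these data known, and their bearing on the Il12a level was not tested.

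Outside the family, Cd5l RNA was abundant. Cd5l is a secreted macrophage protein that can bind Il12b protein, and its level was 41.4 TPM in replicate 1 and 98.2 TPM in replicate 2. Those values lay on either side of Il12b, at 47.6 TPM and 48.7 TPM.

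**Figure D5:**
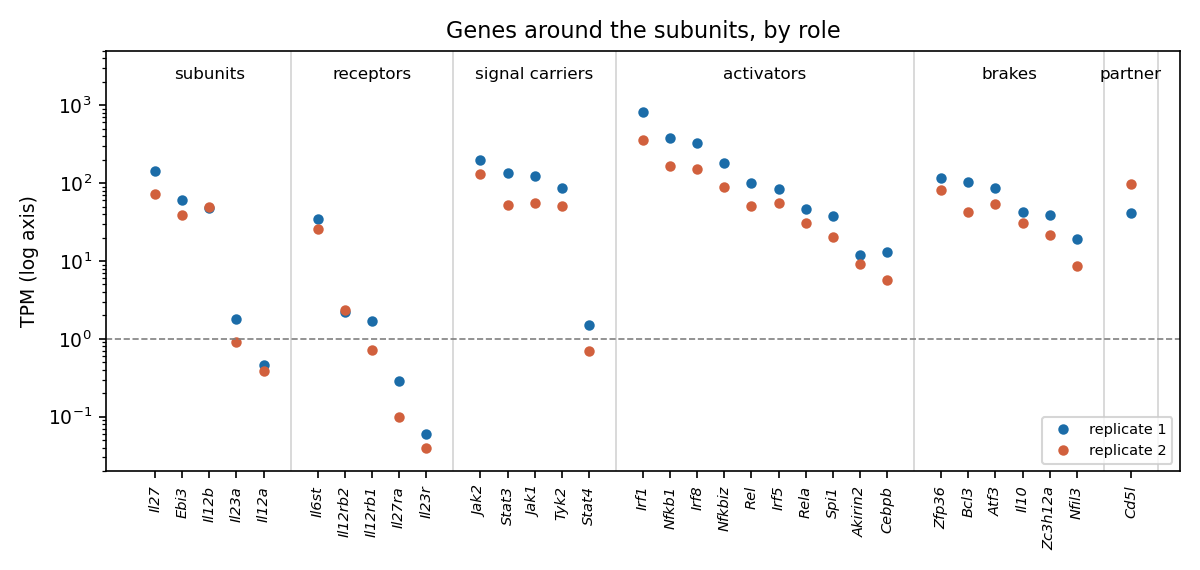
TPM on a log axis of the subunits and of the genes that act around them, 1 point per library, grouped by role and ordered by mean, with a dashed line at 1 TPM. Il23a, Il12a, 4 of 5 receptors and Stat4 lie near or under the line, and all activators and brakes lie above it.

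Among 20 cytokine genes ranked by mean TPM, the subunits took places 8 (Il27), 9 (Ebi3), 10 (Il12b), 16 (Il23a) and 19 (Il12a). The list was led by Tnf at 399 TPM and 267 TPM and by Il15 at 340 TPM and 164 TPM. Only Csf3, with 2 and 3 counts, stood below Il12a. In the read-based tables Il27 stood at place 3.

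The protein-coding genes whose levels were most like each subunit were found by Euclidean distance in log2(TPM + 1) over the 2 libraries. For Il12b they were Cr1l, at 46.6 TPM and 47.5 TPM, and Fgl2, at 49.5 TPM and 48.6 TPM, with 7 genes within a distance of 0.1. For Il27 they were Mapk8ip3, at 142 TPM and 74.5 TPM, and Tank, at 136 TPM and 73.0 TPM, with 6 genes within 0.1. For Ebi3 they were Psmd8, at 61.6 TPM and 39.5 TPM, and Sept7, at 61.5 TPM and 39.9 TPM, with 23 genes within 0.1. Il1r1 and Wdr5b were nearest to Il23a among 59 genes, and Efna2 and Eid2b nearest to Il12a among 104, so the low subunits had many neighbours. A likeness over 2 libraries is a likeness of levels only.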

How the data were processed

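Ribosomal RNA-depleted total RNA of 2 libraries was quantified on mm10 with annotation M21, per the labels' accompanying notes; which tools were used and whether they read strand is not given in the sources used here. Expected counts as deposited (estimated counts, from a transcriptome alignment or from the read files) need not be whole. The deposited TPM values are scaled by effective length and library, per the file headers. Alternatives were the deposited FPKM and posterior mean TPM. The deposited isoform percent gave transcript shares in the alignment-based tables. Numbered entries without a gene name were left out.

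Detection meant 1 TPM in both libraries. Count intervals are exact Poisson intervals, and those of ratios are exact intervals conditional on the summed counts, and treat reads as independent molecules, which they are not without molecular identifiers. With 1 group there was no test. The members and lists were chosen with earlier results of these data known. Named were the 5 subunits, all receptors, the partner Cd5l, the 2 highest and 2 lowest genes of other lists, and the 2 nearest genes. Among the genes first listed, 2 are not reported here. The median-centred difference was tested on simulated data. Tools were R 4.3.3, with edgeR 4.0.16 and DESeq2 1.42.0 for alternative scalings of rounded counts, and Python 3.11.15 with scipy 1.17.1, numpy 2.4.6, pandas 2.3.3 and matplotlib 3.10.9.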

Additional observations from a re-analysis of the deposited data

How the results depend on the processing

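A mean over 2 libraries always has each library within 1 SD, so leaving one out says little about stability. The read-based tables gave 0.321 TPM for Il12a, 34.8 TPM for Il12b and 2.52 TPM for Il23a, and ratios of 0.0723 for Il23a to Il12b and 3.71 for Il27 to Ebi3 (0.0283 and 2.07 in the alignment-based tables). They put 76.7% of Il23a TPM in the retained-intron transcript (10.6% otherwise) and 10.1% of Il12b TPM in Il12b-202 (0.95% otherwise). Posterior mean TPM gave 0.81 for Il12a and 45.0 for Il12b, with ratios of 0.0181 for Il12a to Il12b and 0.0176 for Il12a to Ebi3 (0.00884 and 0.00871 otherwise). TPM over nuclear-encoded protein-coding genes alone gave 1.71 for Il12a, 197 for Il12b, 5.21 for Il23a, 411 for Il27 and 198 for Ebi3, since its total leaves out all other RNA. At 5 TPM, 1 receptor was detected in place of 2. For the rest the cause was not tested. Relative log2 differences ranged over settings from 0.34 to 0.72 for Il12b, -0.64 to -0.28 for Il27, -0.32 to 0.15 for Ebi3 and -0.28 to 0.44 for Il23a, so the last 2 changed sign. No paired analysis was possible because there is 1 group. Depth limits Il12a, at 6 and 7 counts, most.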

Other observations

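The read-based tables counted more reads than the alignment-based ones for most genes, and for 2 subunits by more than usual. Over 6779 well-counted protein-coding genes, the median ratio of read-based to alignment-based counts was 1.39 in replicate 1 and 1.62 in replicate 2. For Il27, which has 1 annotated transcript, it was 2.51 and 2.84, above 95.2% and 95.5% of those genes. For Il23a it was 3.45 and 7.15, above 98.3% and 99.8%. Il12b, at 1.49 and 1.56, and Ebi3, at 1.33 and 1.69, lay near the median.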
